A study of Mus musculus with 4 samples.

Results

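The nuclear genes for subunits of respiratory complexes I, III and IV and of ATP synthase (complex V) were followed by RNA-seq in mouse acute myeloid leukaemia in which NRASG12V had been switched off. Members were taken by symbol: Ndufa, Ndufb, Ndufc, Ndufs, Ndufv, Uqcr, Cox4i, Cox5, Cox6, Cox7, Cox8 and Atp5, without Ndufaf assembly genes and names with -ps. Of 81 rows that matched, 78 reached 1 FPKM (fragments scaled to transcript length and library total) in at least 1 library and are the members, out of 11965 rows at that level and 23235 rows in each table. They comprise 38 genes of complex I, 8 of complex III, 15 of complex IV and 17 of complex V. Left out were Cox7b2 and Cox8c, listed at 0 in every library, and Cox8b, which reached at most 0.428 FPKM; the member nearest the limit, Cox4i2, reached 1.83 FPKM.

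Each group holds 1 library. The groups are NRASG12V off at 48 h, 72 h and 96 h of doxycycline, and NRASG12V on. In all 4, leukaemia cells of genotype NRASG12V/Mll-AF9 had been injected through the tail vein of SCID/Beige mice, which lack mature T and B lymphocytes but keep their own red cell precursors and macrophages, and had grown to advanced leukaemia. Doxycycline, which abolishes NRASG12V expression in this model, was started by injection into the abdomen at time 0 and kept up in the drinking water. No library with doxycycline and NRASG12V still on was analysed here, so the drug, elapsed time and the switch cannot be told apart. The labels name neither the tissue harvested nor separate mice, and the on library was read from the columns headed 0 hours.

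Complexes I, III and IV of the inner mitochondrial membrane pass electrons from NADH to oxygen and pump protons across it. ATP synthase uses the proton gradient to make ATP. Most subunits are encoded in the nucleus, as all members here are, and join others encoded in mitochondrial DNA. Myeloid leukaemia cells depend strongly on respiration, whereas red cell precursors lose their mitochondria as they mature. Several complex IV subunits and the c subunit of ATP synthase have paralogues that differ in where they are expressed.

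The promoters shown belong to the c subunit genes, among which Atp5g2 had the lowest mean change of all members averaging at least 5 FPKM, and to the Cox6b pair, whose members lay on opposite sides of the on library. Each stretch is the 150 bases before the annotated start, from RefSeq on build GRCm38.p6, written 5′ to 3′ on the strand of the gene. Capitals mark matches, on either strand, to 8 motifs. One is the site of NRF1, a factor for many respiratory genes, whose letters can be read in the Atp5g2 stretch with any base allowed at the fifth position. The ETS factor motif was CCGGAAG. For YY1 the letters were ATGGCGGC, and GGGCGG stood for Sp1. The motif of the ERR receptors was AAGGTCA. The E-box bound by Myc was searched as CACGTG, and GATA factor sites were searched as AGATAA. The last motif was CCAAT. Matches may overlap.
Atp5g2, chr15:102671048-102671197, minus strand: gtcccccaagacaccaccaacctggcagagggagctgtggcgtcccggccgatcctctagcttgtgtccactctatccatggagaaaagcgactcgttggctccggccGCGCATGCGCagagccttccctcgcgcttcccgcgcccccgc
Atp5g1, chr11:96075632-96075781, minus strand: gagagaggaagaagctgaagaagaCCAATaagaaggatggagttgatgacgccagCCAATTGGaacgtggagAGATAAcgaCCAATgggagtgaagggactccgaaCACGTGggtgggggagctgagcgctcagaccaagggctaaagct
Atp5g3, chr2:73911327-73911476, minus strand: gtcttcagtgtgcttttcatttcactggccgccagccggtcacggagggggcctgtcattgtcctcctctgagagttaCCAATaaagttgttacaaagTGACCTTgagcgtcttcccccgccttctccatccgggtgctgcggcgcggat
Cox6b2, chr7:4753095-4753244, minus strand: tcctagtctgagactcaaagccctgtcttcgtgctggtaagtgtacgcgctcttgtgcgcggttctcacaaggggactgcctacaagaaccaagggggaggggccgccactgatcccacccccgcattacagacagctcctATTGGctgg
Cox6b1, chr7:30626115-30626264, minus strand: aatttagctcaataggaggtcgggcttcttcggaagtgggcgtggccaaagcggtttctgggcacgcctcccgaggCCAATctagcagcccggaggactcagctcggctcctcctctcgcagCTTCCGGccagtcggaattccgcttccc
In these stretches Atp5g2 holds an NRF1 match, Atp5g1 holds CCAAT, GATA and E-box matches, and Atp5g3 holds a CCAAT and an ERR match. Cox6b2 holds a CCAAT match and Cox6b1 a CCAAT and an ETS match. In the longer window counted further on, Atp5g3 also has NRF1, E-box and GATA matches, and Atp5g2 and Cox6b2 each have an Sp1 match. A match describes the letters only.

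Across the members the off libraries lay slightly lower, most clearly at 48 h and 72 h. The median change, log2((off FPKM + 1)/(on FPKM + 1)) within each deposited table, was -0.33 at 48 h, -0.40 at 72 h and -0.16 at 96 h. Over all 11965 rows tested it was -0.13, -0.06 and -0.05 at the same times. The members' values depend on scaling. With globin and short RNA rows left out of the total they were -0.14, -0.23 and -0.04, against 0.03, 0.08 and 0.05 over all rows. With the median change of all genes set to 0 they were -0.18, -0.31 and -0.09. At 48 h 73 of 78 members were below the on library, at 72 h 73 and at 96 h 51, where 59.5%, 54.2% and 53.6% of all rows were below. Most members moved by less than 1.5-fold: 65 at 48 h, 58 at 72 h and 65 at 96 h. Some 12, 19 and 11 members were at least 1.5-fold lower at 48 h, 72 h and 96 h (17.3%, 18% and 19.4% of all rows), and 1, 1 and 2 were as much higher (12.1%, 14.9% and 15.8%). At least 2-fold lower were 3, 2 and 4 members, Cox4i2 among them each time (4.76%, 5.65% and 8% of all rows), and 0 members were 2-fold higher at any time (4.91%, 6.49% and 7.25%). The 3 changes share the on library, and none has a replicate check. In bulk RNA, fewer cells of a type and less RNA per cell cannot be told apart.

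Abundant rows and short transcripts also lay lower in the off libraries. In the on library 66 of 78 members were above the 90th percentile of rows, with a median percentile of 95.7. Their transcripts were short, at a median of 863 bases, against 3069 bases over 10480 rows matched to GENCODE M21. The 910 rows that reached 100 FPKM had median changes of -0.39, -0.43 and -0.30 at 48 h, 72 h and 96 h, and 71.3%, 71.2% and 68.6% of them lay below the on library. The 553 rows with transcripts under 1000 bases had medians of -0.39, -0.45 and -0.24. The members' medians were thus no lower than those of either class, while 93.6% of members lay below the on library at 48 h and at 72 h, and 65.4% at 96 h. Of the members 52 are among the 910 rows and 47 among the 553, so the classes are not separate from them. The part of level and length in the members' shift was not tested.

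**Figure D1:**
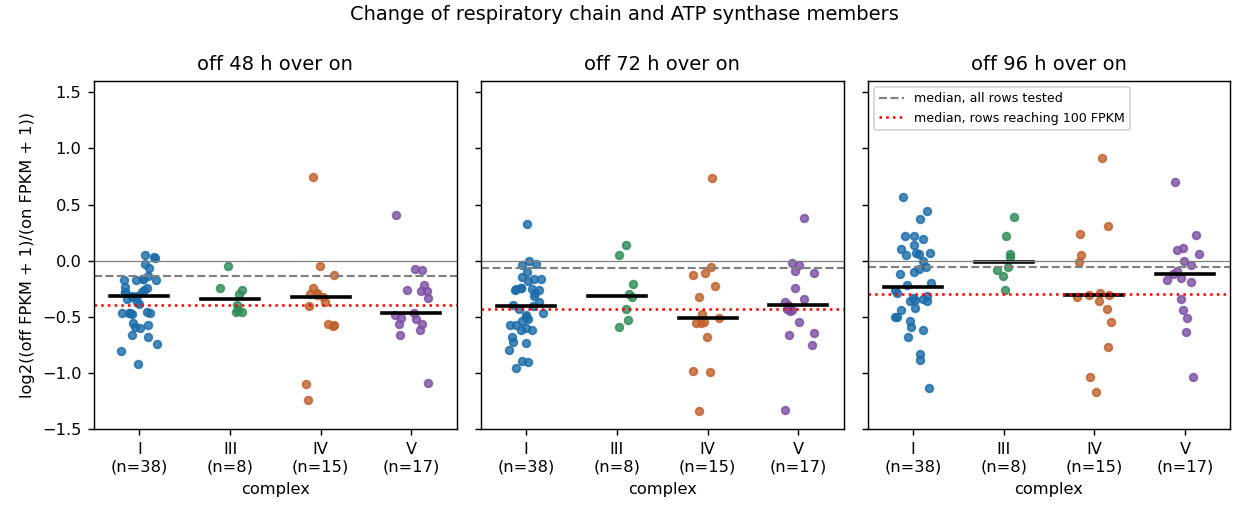
Each point is 1 member, placed by complex, with its log2 change (off over on, 1 library each) on the vertical axis at 48 h, 72 h and 96 h; a black bar marks each complex's median, a dashed line the median of all rows tested and a dotted line that of rows reaching 100 FPKM. At 48 h and at 72 h 73 of 78 points lie below 0, and at 96 h the medians of complexes III and V are -0.01 and -0.12.

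The off libraries were also taken as 3 samples of the off state and compared with the on library by limma on log2(FPKM + 1), with Benjamini-Hochberg adjustment over all rows at 0.05. By this test 9 of 78 members fell (11.5%) and 1 rose (1.28%), where 15.2% of all rows fell and 11.8% rose, 27% in either direction. One of the 9, Cox4i2, reached 1 FPKM through the on library alone and so had to be lower, which leaves 8. The number of members that fell moved with the settings. It was 7 with the median change of all genes set to 0, 4 with globin and short RNA rows left out of the total, and 5 with every row above 0 kept or with a filter at 20 FPKM. Without the 48 h, the 72 h or the 96 h library 14, 4 and 17 members fell, and none rose without the 72 h library. In the same fits 2282, 1222 and 2153 of all 11965 rows fell. Over all rows the counts were 1413 that rose and 1817 that fell, a split that turned to 1736 and 1242 with the median change of all genes set to 0 and to 1791 and 1091 with globin and short RNA rows left out of the total. Of rows that reached 100 FPKM, 22.5% fell and 12.2% rose. Without adjustment 20 members were lower and 2 higher at p under 0.05, beside 41.5% of all rows in either direction. The test counts differences between times as spread, has 2 residual degrees of freedom and takes the spread of the single on library to equal that of the off libraries. With time as a covariate 36 of 78 members fell and 2 rose, among 3561 of 11965 rows that fell and 2452 that rose. This fit and those without 1 off library have only 1 residual degree of freedom, so their calls are less certain. Every off library was lower than the on library for 51 members (65.4%), beside 45.8% of all rows and 64.0% of rows reaching 100 FPKM. The 3 stood higher than it for 2 members, Cox6b2 and Atp5s, beside 33.3% of all rows.

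**Figure D2:**
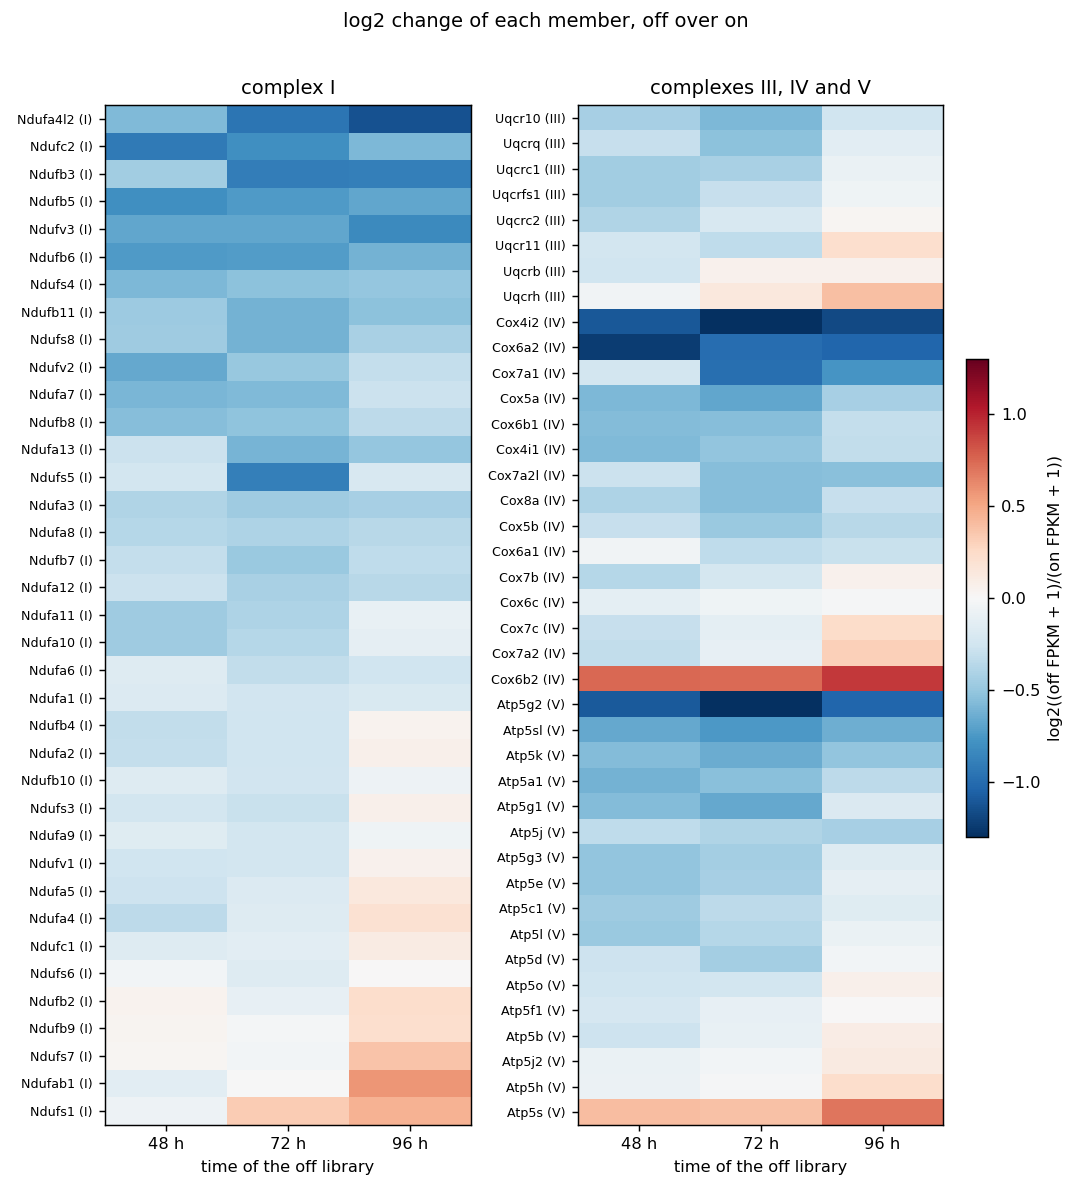
Rows are 77 of the 78 members, ordered by mean change within each complex, and columns are the off libraries at 48 h, 72 h and 96 h; colour gives the log2 change of each off library over the on library, blue for lower and red for higher. Atp5g2, Cox4i2 and Cox6a2 stand out in blue and Cox6b2 in red at all 3 times, and many complex III and V rows are pale or light red at 96 h.

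Among the 38 complex I genes, 5 fell (13.2%) and none rose, beside 15.2% and 11.8% of all rows. Their median change was -0.32 at 48 h, -0.40 at 72 h and -0.23 at 96 h, and -0.13, -0.23 and -0.11 with globin and short RNA rows left out of the total. Levels from here on are FPKM on the scale of the 48 h table, given for 48 h, 72 h and 96 h in that order, and each mean log2 change carries its SD over the 3 off libraries (n = 3), which differ in time. Ndufc2, a subunit of the membrane arm, stood at 63.2, 69.1 and 79.9 FPKM in the off libraries, against 121 FPKM in the on library. Its mean log2 change was -0.77 ± 0.17, and it fell (limma, adjusted p = 0.0305). Ndufb5, also of the membrane arm, stood at 44.1, 46.2 and 48.1 FPKM in the off libraries, against 77.6 FPKM in the on library, and fell (-0.74 ± 0.062, limma adjusted p = 0.0235). Ndufb6, of the same arm, stood at 65.0, 65.6 and 70.8 FPKM in the off libraries, against 109 FPKM in the on library, and fell (-0.69 ± 0.067, limma adjusted p = 0.0308). In Ndufb5 and Ndufb6 the off libraries lay together, well below the on library, while those of Ndufc2 climbed from 48 h to 96 h but stayed below it. Ndufv3, an accessory subunit of the module that oxidises NADH, stood at 89.2, 89.1 and 80.1 FPKM in the off libraries, against 143 FPKM in the on library, and fell (-0.73 ± 0.088, limma adjusted p = 0.0287). Without the 72 h library the limma adjusted p was 0.128 for Ndufc2, 0.128 for Ndufb5, 0.182 for Ndufb6 and 0.136 for Ndufv3. Ndufc2, Ndufb6 and Ndufv3 also did not pass with globin and short RNA rows left out of the total (limma adjusted p = 0.055, 0.0608 and 0.0668) or with every row above 0 kept (0.0647, 0.0531 and 0.0528). Ndufv3 also missed the threshold with the median change of all genes set to 0 (limma adjusted p = 0.05002). Of the 50-base stretches in the Ndufb5 transcript 16.2% also occur in Mrpl47, and of those in Ndufb6 34.1% in Smim27, both overlapping genes on the opposite strand, so reads may be divided.

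Ndufb3, another membrane arm subunit, had a mean change of -0.75 ± 0.25 and did not pass (limma adjusted p = 0.0512). It stood at 117, 85.4 and 86.3 FPKM in the off libraries, against 160.1 FPKM in the on library, so the later libraries were lower than the one at 48 h. Ndufs5 was apart at 72 h, with 64.6, 40.7 and 65.8 FPKM in the off libraries, against 76.3 FPKM in the on library, and 31.1% of its 50-base stretches occur in BC002163. Ndufa3, a small accessory subunit and the complex I gene with the highest mean level, stood at 255, 241 and 247 FPKM in the off libraries, against 334 FPKM in the on library. Ndufab1, the mitochondrial acyl carrier protein that is also a complex I subunit, stood at 30.1, 33.2 and 49.9 FPKM in the off libraries, against 33.3 FPKM in the on library, with the 96 h library apart from the rest.

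None of the 7 core complex I genes passed the test, beside 27% of all rows. Their median change was -0.26 at 48 h, -0.29 at 72 h and 0.06 at 96 h. Ndufs1, the largest iron-sulphur subunit, stood at 32.2, 42.7 and 46.4 FPKM in the off libraries, against 33.7 FPKM in the on library, so the 48 h library lay just below the on library and the later ones above it. Ndufs7, which holds the iron-sulphur cluster next to the quinone site, stood at 69.5, 66.4 and 88.6 FPKM in the off libraries, against 68.1 FPKM in the on library. Ndufv1, which binds NADH and FMN, stood at 61.4, 62.3 and 77.2 FPKM in the off libraries, against 74.0 FPKM in the on library. In these 3 genes the 96 h library was the highest of the 4. Ndufs8, an iron-sulphur subunit, stood at 58.1, 52.2 and 59.8 FPKM in the off libraries, against 80.6 FPKM in the on library (-0.50 ± 0.10, limma adjusted p = 0.0892). Ndufv2, an iron-sulphur subunit of the NADH module, stood at 46.5, 52.2 and 59.4 FPKM in the off libraries, against 74.0 FPKM in the on library (-0.49 ± 0.17, limma adjusted p = 0.116). Both had every off library below the on library. Ndufs3 stood at 54.1, 52.3 and 67.1 FPKM in the off libraries, against 64.0 FPKM in the on library, on both sides of it, and 39.7% of its 50-base stretches occur in other genes.

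Ndufa4 and Ndufa4l2 carry complex I names, but the Ndufa4 protein was later placed in complex IV. Ndufa4 stood at 182, 207 and 266 FPKM in the off libraries, against 232 FPKM in the on library, with the 96 h library above the on library and the others below. Ndufa4l2, a paralogue known as a target of the hypoxia factor HIF-1, was low throughout, at 2.46, 1.63 and 1.31 FPKM in the off libraries, against 4.14 FPKM in the on library, and fell (-0.89 ± 0.29, limma adjusted p = 0.0261). It did not pass with every row above 0 kept (limma adjusted p = 0.0767), with the median change of all genes set to 0 (0.0699) or with globin and short RNA rows left out of the total (0.0645). It made up 1.33%, 0.784% and 0.492% of the FPKM of the pair in the off libraries, against 1.76% in the on library. The gene overlaps Shmt2, annotated on the opposite strand, and no source used here says whether strand was used in counting.

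None of the 8 complex III genes passed the test, beside 27% of all rows. Their median change was -0.34 at 48 h, -0.31 at 72 h and -0.01 at 96 h; they were -0.15, -0.14 and 0.11 with globin and short RNA rows left out of the total and -0.19, -0.22 and 0.06 with the median change of all genes set to 0. Uqcrc1, a core protein on the matrix side, stood at 92.6, 94.4 and 119.9 FPKM in the off libraries, against 127 FPKM in the on library. Uqcrc2, its partner, stood at 55.3, 62.9 and 74.3 FPKM in the off libraries, against 72.8 FPKM in the on library. Uqcrfs1, the Rieske iron-sulphur protein that passes electrons to cytochrome c1, stood at 50.8, 56.9 and 67.5 FPKM in the off libraries, against 70.1 FPKM in the on library. In all 3 the 48 h library was the lowest and the 96 h library the highest of the off libraries. Uqcrh, the hinge protein, stood at 198, 226 and 269 FPKM in the off libraries, against 205 FPKM in the on library, and had the most positive mean change of the complex (0.16 ± 0.22). Uqcr10, a small subunit, stood at 156, 140.0 and 176 FPKM in the off libraries, against 211 FPKM in the on library, and had the lowest (-0.43 ± 0.16, limma adjusted p = 0.171). Uqcrq, another small subunit, stood at 187, 159 and 208 FPKM in the off libraries, against 229 FPKM in the on library. The off libraries of Uqcrq and Uqcr10 were below the on library at every time, and those of Uqcrh above it at 72 h and 96 h. Uqcr11 stood at 167, 158 and 231 FPKM in the off libraries, against 198 FPKM in the on library. Uqcrb stood at 150.4, 187 and 187 FPKM in the off libraries, against 180.0 FPKM in the on library, and 43.4% of its 50-base stretches occur in other genes. Both small subunits lay on either side of the on library.

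In complex IV, Cox6b2 rose, the rare isoform Cox6a2 fell and the common isoforms did not pass. Cox4i2, another rare isoform, passed as lower, but it entered the test through the on library alone. Of the 15 genes 2 thus fell (13.3%) and 1 rose (6.67%), beside 15.2% and 11.8% of all rows. The median change of the 15 genes was -0.32 at 48 h, -0.51 at 72 h and -0.31 at 96 h, and -0.13, -0.34 and -0.19 with globin and short RNA rows left out of the total. Cox4i1, the ubiquitous form of the regulatory subunit 4, stood at 356, 372 and 426 FPKM in the off libraries, against 531 FPKM in the on library (-0.47 ± 0.13, limma adjusted p = 0.139). Cox5a stood at 124, 116 and 138 FPKM in the off libraries, against 186 FPKM in the on library (-0.56 ± 0.13, limma adjusted p = 0.0774). Cox5b, the zinc-binding subunit and the gene of the complex with the highest mean level, stood at 437, 387 and 420.1 FPKM in the off libraries, against 539 FPKM in the on library (-0.38 ± 0.089). In these 3 genes every off library lay below the on library. Cox6a1 and Cox8a, widespread forms of their subunits, had mean changes of -0.22 ± 0.15 and -0.42 ± 0.13, and Cox7b of -0.18 ± 0.22. Cox7a2, the widespread form of subunit 7a, stood at 109, 126 and 169 FPKM in the off libraries, against 136 FPKM in the on library. Cox7c, another small subunit, stood at 157, 177 and 228 FPKM in the off libraries, against 193 FPKM in the on library. Both were lowest at 48 h and above the on library at 96 h. Cox7a2l, a factor that joins complexes III and IV in supercomplexes, stood at 140.0, 116 and 117 FPKM in the off libraries, against 171 FPKM in the on library (-0.46 ± 0.15).

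Cox6b2, the form of subunit 6b known from testis, was the 1 member that rose. It stood at 97.5, 96.9 and 109.7 FPKM in the off libraries, against 57.5 FPKM in the on library, a mean change of 0.80 ± 0.10 (limma adjusted p = 0.0206, and 0.0861 without the 72 h library). Its ubiquitous partner Cox6b1 stood at 263, 265 and 314 FPKM in the off libraries, against 389.6 FPKM in the on library (-0.48 ± 0.15, limma adjusted p = 0.134). In all 3 off libraries Cox6b2 was above and Cox6b1 below the on library. Cox6b2 made up 27.0%, 26.8% and 25.9% of the FPKM of the pair in the off libraries, against 12.9% in the on library, a ratio that does not depend on scaling. Neither transcript shares a 50-base stretch with another GENCODE M21 gene.

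Cox4i2, an isoform of subunit 4 known from lung and hypoxic cells, stood at 0.318, 0.0869 and 0.226 FPKM in the off libraries, against 1.83 FPKM in the on library, and passed as lower (-1.202 ± 0.12, limma adjusted p = 0.00316). As it reached 1 FPKM in the on library alone, it had to be lower in the others. Cox6a2, the heart and muscle isoform of subunit 6a, stood at 1.43, 1.86 and 1.78 FPKM in the off libraries, against 4.74 FPKM in the on library, and fell (-1.09 ± 0.13, limma adjusted p = 0.00458). It overlaps Itgad, an integrin gene annotated on the opposite strand. Cox6a2 passed without each off library in turn. So did Cox4i2, which had to be lower whichever was left out. Cox7a1, the muscle isoform of subunit 7a, stood at 1.78, 0.635 and 0.901 FPKM in the off libraries, against 2.28 FPKM in the on library, and did not pass (-0.66 ± 0.38, limma adjusted p = 0.103). These rare forms made up at most 1.65% of the FPKM of their isoform pair in any library.

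Of the 15 ATP synthase subunits, Atp5g2 fell and the others did not pass, where 15.2% of all rows fell and 11.8% rose. The other 2 of the 17 genes, Atp5sl and Atp5s, are not structural subunits of ATP synthase despite their names. The median change of the 17 genes was -0.46 at 48 h, -0.39 at 72 h and -0.12 at 96 h, and -0.27, -0.21 and 0.004 with globin and short RNA rows left out of the total. At 96 h it was -0.05 with the median change of all genes set to 0. Atp5g2 is 1 of 3 genes for the c subunit, the membrane ring turned by the proton flow; they encode the same mature protein with different import sequences. It stood at 151, 127 and 156 FPKM in the off libraries, against 321 FPKM in the on library, and fell (-1.15 ± 0.16, limma adjusted p = 0.008). It passed in each of 12 other fits, with limma adjusted p from 7.67e-05 to 0.0313. Atp5g1 stood at 93.9, 87.5 and 122 FPKM in the off libraries, against 139 FPKM in the on library (-0.47 ± 0.25, limma adjusted p = 0.17). Atp5g3 stood at 218, 229 and 277 FPKM in the off libraries, against 312 FPKM in the on library (-0.38 ± 0.18, limma adjusted p = 0.24). All 3 genes lay below the on library in every off library. Atp5g2 made up 32.6%, 28.6% and 28.2% of the summed FPKM of the c subunit genes in the off libraries, against 41.6% in the on library, and Atp5g3 made up 47.1%, 51.6% and 49.9%, against 40.4%. Of the 50-base stretches in the Atp5g2 transcript 14.8% occur in other genes, most of them in Gm10175.

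**Figure D3:**
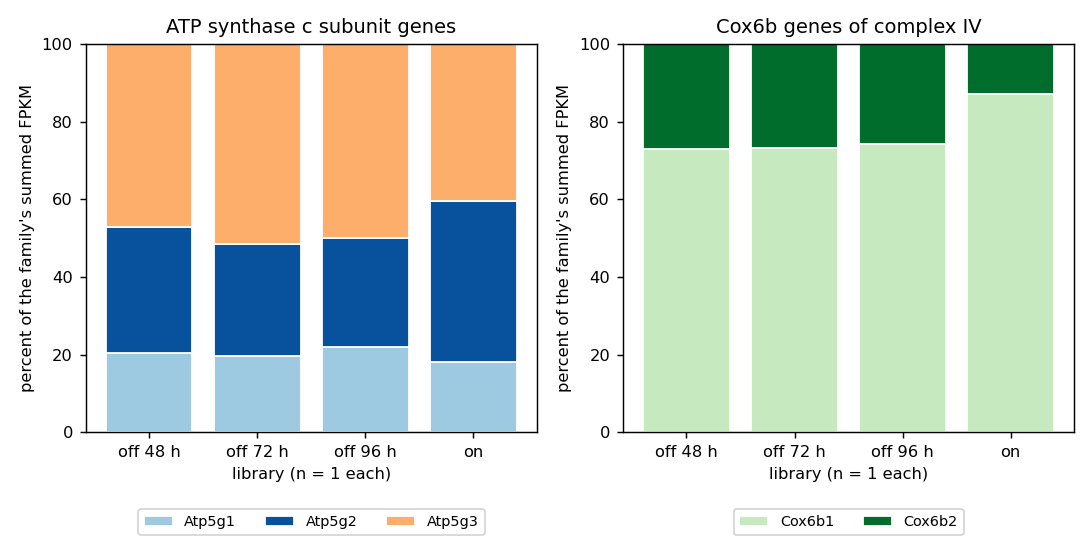
Bars give each gene's percent of its family's summed FPKM in the off libraries at 48 h, 72 h and 96 h and in the on library (n = 1 each), for the c subunit genes of ATP synthase and the Cox6b genes of complex IV. Atp5g2 takes 28.2% to 32.6% in the off libraries, against 41.6% in the on library, and Cox6b2 takes 25.9% to 27.0%, against 12.9%.

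None of the 5 genes of the F1 head and central stalk passed, beside 27% of all rows. Atp5a1, the alpha subunit, stood at 239, 251 and 289 FPKM in the off libraries, against 367 FPKM in the on library (-0.50 ± 0.14, limma adjusted p = 0.117). Atp5b, the catalytic beta subunit and the member with the highest mean level, stood at 470.4, 531 and 605 FPKM in the off libraries, against 567 FPKM in the on library (-0.09 ± 0.18). Atp5a1 lay below the on library in all off libraries, and Atp5b at 48 h and 72 h. The gamma, delta and epsilon subunit genes, Atp5c1, Atp5d and Atp5e, had mean changes of -0.32 ± 0.15, -0.25 ± 0.20 and -0.35 ± 0.21. None of 7 genes of the peripheral stalk and membrane part passed, beside the same 27%. Atp5k, the e subunit, stood at 412, 389 and 427 FPKM in the off libraries, against 609 FPKM in the on library (-0.57 ± 0.068, limma adjusted p = 0.0725). Atp5h, the d subunit, stood at 251, 261 and 310.1 FPKM in the off libraries, against 265 FPKM in the on library. Atp5j2, the f subunit, stood at 344, 355 and 395 FPKM in the off libraries, against 364 FPKM in the on library. Atp5k lay below the on library at every time, and the others were above it at 96 h. Atp5f1, Atp5o, Atp5l and Atp5j had mean changes of -0.11 ± 0.11, -0.15 ± 0.18, -0.31 ± 0.20 and -0.39 ± 0.052. Shared sequence makes some of these uncertain: 84.8% of 50-base stretches in Atp5l, 47.9% in Atp5h, 38.7% in Atp5f1 and 34.0% in Atp5o occur in other genes.

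Atp5sl, an assembly factor of complex I, stood at 5.28, 4.89 and 5.39 FPKM in the off libraries, against 8.95 FPKM in the on library, and fell (-0.68 ± 0.06, limma adjusted p = 0.025, and 0.119 without the 72 h library and 0.0567 with globin and short RNA rows left out of the total). Atp5s, coupling factor B, stood at 3.0004, 2.95 and 3.94 FPKM in the off libraries, against 2.02 FPKM in the on library (0.49 ± 0.18, limma adjusted p = 0.0914). Its off libraries were all above the on library.

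At 96 h most members were higher than at 48 h. Of 78 members 62 were (79.5%), where 59.3% of all rows were, and the median of log2((96 h FPKM + 1)/(48 h FPKM + 1)) was 0.21, against 0.08 over all rows and 0.11 over rows reaching 100 FPKM. All 8 complex III genes (median 0.39), 16 of 17 complex V genes (0.30), 28 of 38 complex I genes (0.12) and 10 of 15 complex IV genes (0.15) were higher. The highest differences were in Ndufab1 (0.71) and Cox7a2 (0.63), and the lowest in Ndufa4l2 (-0.58) and Cox7a1 (-0.55). Lists of other mitochondrial genes, described further on, were also mostly higher at 96 h. The share was 92.1% of mitochondrial ribosomal proteins (median 0.31), 91.3% of TCA cycle and pyruvate dehydrogenase genes (0.34) and 83.3% of assembly factors (0.25). It was 92.9% of regulators (0.24) and 86.7% of carriers and channels (0.26), and all 4 complex II genes were higher (0.24). Each comparison sets 1 library against 1 library and has no replicate check. As a share of FPKM outside globin and short RNA rows, the members made up 2.335%, 2.28% and 2.54% in the off libraries, against 2.61% in the on library.

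Markers of cell types that the samples may hold, leukaemia cells included, moved over the same times. All 20 erythroid markers rose by limma, beside 11.8% of all rows, with medians of 1.89, 2.43 and 2.47 at 48 h, 72 h and 96 h. They summed to 25176, 37675 and 40579 FPKM in the off libraries, against 8018 FPKM in the on library. Most of each sum came from the globin gene Hbb-b2, at 18090, 27118 and 26622 FPKM in the off libraries, against 6140 FPKM in the on library. Of 17 pan-leukocyte markers 5 fell (29.4%) and none rose, beside 15.2% and 11.8% of all rows. Their medians were -0.45, -0.73 and -1.02, with sums of 4016, 3216 and 2458 FPKM in the off libraries, against 5448 FPKM in the on library. Ptprc alone went the other way at 48 h and 72 h. It stood at 101, 94.4 and 64.5 FPKM in the off libraries, against 69.9 FPKM in the on library. Of 10 macrophage markers 1 rose and 2 fell, and they summed to 505, 446 and 416 FPKM in the off libraries, against 433 FPKM in the on library. Lymphoid markers summed to 24.1, 21.7 and 17.1 FPKM in the off libraries, against 19.99 FPKM in the on library. Of the 9, 4 reached 1 FPKM, and of these 2 rose and 1 fell. Endothelial and stromal markers summed to 414, 442 and 278 FPKM in the off libraries, against 282 FPKM in the on library, most of it from collagens. Of the 8 that reached 1 FPKM 3 rose (Cxcl12, Kdr and Tek) and 1 fell (Pecam1). Cxcl12, a chemokine of stromal cells, stood at 79.4, 98.4 and 89.0 FPKM in the off libraries, against 26.5 FPKM in the on library. Kdr, a VEGF receptor of endothelium, stood at 8.07, 6.47 and 7.21 FPKM in the off libraries, against 3.01 FPKM in the on library. Pecam1 stood at 15.6, 14.9 and 13.3 FPKM in the off libraries, against 26.2 FPKM in the on library. The 96 h library gave these 8 genes a median log2 change of -0.22, with 5 of them below the on library. The earlier libraries gave 0.53 (48 h) and 0.58 (72 h). Col1a1, Col1a2 and Col3a1 were above the on library at 48 h and 72 h but below it at 96 h. No marker in these lists was at 0 in all libraries. The lists do not separate leukaemia cells from cells of the recipient mice, and the part of any cell type in the members' levels was not tested. Mouse Nras stood at 17.1, 18.002 and 19.4 FPKM in the off libraries, against 24.5 FPKM in the on library (-0.41 ± 0.088, limma adjusted p = 0.127), a weak check of the switch, since a human transgene need not be counted in the mouse row. Depth per library is unknown.

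Other respiratory genes were counted from lists. In complex II, which feeds in electrons from succinate, none of 4 genes passed, beside 27% of all rows, with medians of -0.52, -0.52 and -0.31. Sdhb, its iron-sulphur subunit, stood at 77.6, 76.2 and 84.2 FPKM in the off libraries, against 117 FPKM in the on library, and Sdha, the flavoprotein, at 73.6, 81.3 and 89.2 FPKM in the off libraries, against 80.9 FPKM in the on library. Neither cytochrome gene passed: Cyc1 (cytochrome c1) had a mean change of 0.087 ± 0.24 and Cycs (cytochrome c) of -0.35 ± 0.12. Atpif1, the inhibitor of ATP synthase in its reverse mode, stood at 683, 764 and 912 FPKM in the off libraries, against 441 FPKM in the on library, and rose (0.82 ± 0.21, limma adjusted p = 0.037), while Usmg5 and 2010107E04Rik, also proteins of ATP synthase, did not pass. The 13 subunits encoded in mitochondrial DNA could not be analysed here, as none of the symbols searched for them matched a row.

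Of 30 assembly factors found, 4 fell (13.3%) and 1 rose (3.33%), beside 15.2% and 11.8% of all rows, with medians of -0.30, -0.07 and 0.02. Cox10, which acts in making haem A for complex IV, stood at 3.37, 3.83 and 4.54 FPKM in the off libraries, against 10.7 FPKM in the on library, and fell (-1.25 ± 0.18, limma adjusted p = 0.0042). Sdhaf1, for complex II, stood at 9.05, 7.68 and 8.64 FPKM in the off libraries, against 17.97 FPKM in the on library, and fell (-1.004 ± 0.11, limma adjusted p = 0.00743). Cox11, which brings copper to complex IV, stood at 8.94, 8.72 and 10.7 FPKM in the off libraries, against 4.67 FPKM in the on library, and rose (0.87 ± 0.14, limma adjusted p = 0.0144). Of 76 mitochondrial ribosomal protein genes 9 fell (11.8%, beside the same 15.2% of all rows) and none rose, with medians of -0.38, -0.31 and -0.07. Mrps9 and Mrps23, of the small subunit, fell (-1.06 ± 0.067 and -0.94 ± 0.13, limma adjusted p = 0.00532 and 0.0115).

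Of 23 genes of the TCA cycle and pyruvate dehydrogenase 3 fell (13.0%) and 1 rose (4.35%), beside 15.2% and 11.8% of all rows, with medians of -0.38, -0.19 and -0.08. Idh2, the mitochondrial NADP-dependent isocitrate dehydrogenase, stood at 25.8, 26.6 and 29.8 FPKM in the off libraries, against 58.9 FPKM in the on library, and fell (-1.08 ± 0.11, limma adjusted p = 0.00615). Of the kinases that switch off pyruvate dehydrogenase, Pdk4 fell (-1.18 ± 0.17, limma adjusted p = 0.00409) and Pdk2 rose (0.87 ± 0.17, limma adjusted p = 0.0141). Of 15 carriers and channels that reached 1 FPKM 4 fell (26.7%) and 3 rose (20.0%), beside 15.2% and 11.8% of all rows. Their medians were -0.51, -0.52 and -0.15, and the 3 that rose were Slc25a37, Slc25a38 and Slc25a39. Slc25a4, an exchanger of ADP and ATP, stood at 56.9, 67.0 and 53.6 FPKM in the off libraries, against 133 FPKM in the on library, and fell (-1.16 ± 0.16, limma adjusted p = 0.00675). Slc25a13, an aspartate and glutamate carrier, fell (-1.63 ± 0.11, limma adjusted p = 0.00157). Slc25a37 (mitoferrin 1), which imports iron for haem, stood at 299, 475 and 421 FPKM in the off libraries, against 95.3 FPKM in the on library, and rose (2.03 ± 0.35, limma adjusted p = 0.00261). Slc25a38, which serves haem synthesis in red cell precursors, also rose (1.72 ± 0.27, limma adjusted p = 0.00265). None of 14 regulators of mitochondrial genes that reached 1 FPKM passed, beside 27% of all rows, with medians of -0.09, 0.11 and 0.24. Nrf1, the gene of the factor named above, stood at 20.7, 25.01 and 26.5 FPKM in the off libraries, against 22.1 FPKM in the on library.

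**Figure D4:**
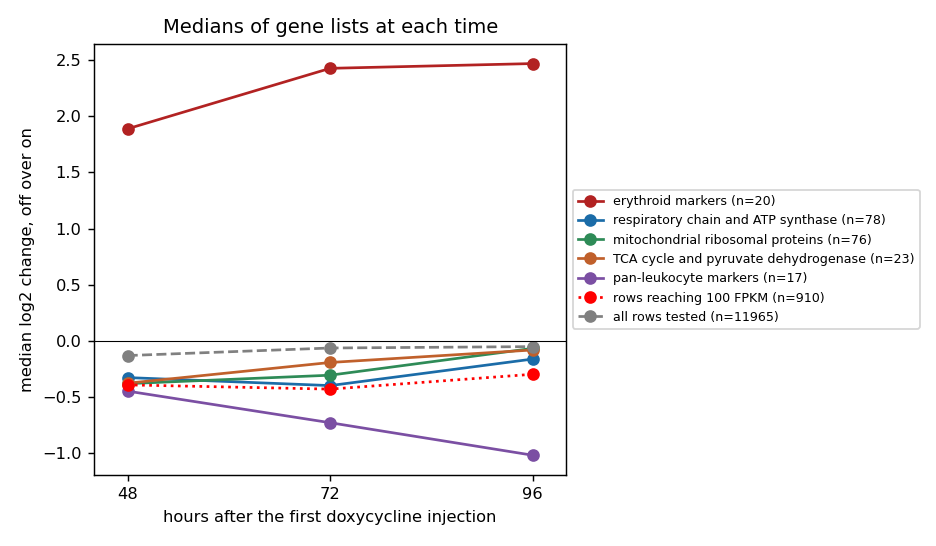
Lines join the median log2 change (off over on) of each gene list at 48 h, 72 h and 96 h after the first injection, with the number of genes in the legend. Erythroid markers lie at 1.89 to 2.47 and pan-leukocyte markers at -0.45 to -1.02, while the members, mitochondrial ribosomal proteins and TCA cycle genes lie between -0.40 and -0.07.

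Promoter entries were found for 65 of 78 members. Those without included Atp5a1, Cox4i1, Cox4i2, Cox6a2, Cox6c, Ndufa2, Ndufa4l2, Ndufb9, Ndufs1, Uqcrb, Uqcrc2 and Uqcrq. In windows from 250 bases before to 50 bases after the start, the NRF1 motif was found in 15 of 65 members (23.1%), against 11.7% of 9496 genes that reached 1 FPKM and 5.19% of all 27025 genes. The YY1 motif was found in 10.8% of members, 5.86% of expressed genes and 2.60% of all genes, and the ERR motif in 10.8%, 3.93% and 5.38%. The ETS motif was found in 21.5% of members, 20.5% of expressed genes and 9.93% of all genes, and the Sp1 motif in 40.0%, 68.3% and 38.2%. The E-box was found in 10.8%, 11.7% and 8.09%, the GATA motif in 9.23%, 7.97% and 12.7%, and CCAAT in 43.1%, 43.3% and 41.1%. By complex the NRF1 motif was in 6 of 16 promoters of complex V, 7 of 33 of complex I, 1 of 11 of complex IV and 1 of 5 of complex III. Members with the NRF1 motif (15) had a median mean change of -0.32 and those without (50) of -0.35. For YY1 the medians were -0.48 (7 with) and -0.32 (58 without), and for GATA -0.42 (6 with) and -0.32 (59 without). For the other 5 motifs they were -0.38 to -0.33 with and -0.32 without. These shares and medians were not tested.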

How the data were processed

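RNA of 4 leukaemia libraries was sequenced by Illumina RNA-seq. The authors deposited FPKM values, made with TopHat2 2.0.4 and Cuffdiff on mm9, per the submitters' processing notes; no source used here gives the annotation, normalisation or strand setting. Each table pairs the on library with 1 off library and has its own scale. After 1 factor per table (0.949 at 72 h, 0.947 at 96 h) over 99.9% of values in the on column matched within 0.1%, and levels were set on 1 scale through it. A combined off column was not used.

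Changes were computed within each table with a pseudocount of 1 FPKM, which understates changes of low genes. Rows reaching 1 FPKM were tested with limma 3.58.1 (statmod 1.5.0, R 4.3.3, eBayes with trend and robust). The code was also run on simulated data that gave every library the same spread. That run cannot check whether the on library varies like the off libraries here. Separate animals are not stated, so p-values cover only spread between these samples, which may be technical. FPKM hold no counts, so no counting interval can be given. Shared 50-base stretches and overlapping genes were read from GENCODE M21; no coordinates were converted between builds.

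Named with values were, per complex, the 3 highest and 3 lowest mean changes among genes averaging at least 5 FPKM, the most abundant gene, genes of the role lists and genes called at 2-fold or more; per pathway list, up to 2 called genes in each direction. The other called members, Ndufs5, Atpif1's list partners, Sdha, Sdhb, Cyc1, Cycs, Nrf1 and the named stromal and endothelial markers were added after their values were seen. Members and lists were chosen with earlier results of these data known. The values of 1 complex I member are not reported here.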

Additional observations from a re-analysis of the deposited data

Results flagged for a closer look

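Cox7a2, the widespread form of complex IV subunit 7a, had a log2 change of -0.32 at 48 h and of 0.31 at 96 h, each over the same on library. The signs are opposite and each change is at least 0.25 in size. With 1 library per time, the difference was not tested.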

How the results depend on the processing

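Pseudocount, filter, scaling, libraries and model were varied; a filter at 20 FPKM and a count over members with under 10% shared stretches were added after seeing the data. Of 150 recomputed medians 136 moved by less than the SD of that median over the 3 off times, a spread that includes the change over time. The other 14 all came from the 2 changes of scaling, the median set to 0 and globin and short RNA rows left out. Some of the other settings hardly change the values, so the pooled count overstates stability. Of all 150 medians 3 changed sign, all at 96 h. Complex III was at 0.06 with the median of all genes set to 0 and at 0.11 without globin rows. Complex V was at 0.004 without globin rows. With the median change of all genes set to 0 (a shift of -0.15, -0.09 and -0.07 removed at 48 h, 72 h and 96 h), the members' median at 48 h was -0.18, that of complex I -0.16 at 48 h and -0.31 at 72 h, and that of complex IV -0.17 at 48 h. Leaving globin and short RNA rows out of the total shifted changes up by 0.18, 0.16 and 0.11. The members' median was then -0.14, -0.23 and -0.04, that of complex I -0.13, -0.23 and -0.11, and that of complex IV -0.13, -0.34 and -0.19; at 48 h complex III was at -0.15 and complex V at -0.27. Members at least 2-fold lower, 3, 2 and 4 in the report, numbered 1 at each time with a pseudocount of 5 FPKM or a filter at 5 or 20 FPKM. They numbered 5 at 72 h with a pseudocount of 0.1 FPKM, 1 at 48 h and 2 at 96 h with the median set to 0, 4 at 72 h on 1 scale and 1 at 72 h among members with little shared sequence. Without globin rows 2 were lower and 1 higher at 96 h. By limma with Benjamini-Hochberg adjustment, 9 members fell and 1 rose. With no filter 5 fell, without globin rows 4, at 20 FPKM 5, and with time as a covariate 36 fell and 2 rose. Leaving out 1 off library gave 4 to 17 that fell (14 without 48 h, 4 without 72 h, 17 without 96 h) and 0 to 1 that rose (0 without 72 h). Over all rows 1817 fell and 1413 rose. These counts were 1091 and 1791 without globin rows, 1242 and 1736 with the median set to 0, 843 and 517 at 20 FPKM, 3561 and 2452 with time as a covariate, and 1222 to 2282 and 1125 to 1874 with 1 off library left out. The cause was not tested, except that the filters change how many rows are tested. For the 10 called members, 96 of 113 refits kept the call, 17 lost it and 0 reversed. Cox4i2, which had to be lower, kept its call in every refit, and those refits add no support. No paired analysis was possible because each group has 1 library and the labels give no replicate numbers.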
